A study of Mus musculus with 16 samples.

Results

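The 10 transcription factors followed here direct the formation of the lung and were measured in RNA sequencing libraries of newborn mice, namely Nkx2-1, Foxa1, Foxa2, Gata6, Sox2, Sox9, Sox17, Foxf1, Tbx4 and Tbx5. They were chosen by name, and all 10 of the 10 were found among the 25054 gene entries of the table, each on 1 entry. The 16 libraries came from C57BL/6J pups born to heterozygous Man1a2 parents of both sexes, and the Man1a2 allele lacks exon 2 of a mannosidase that trims N-linked glycans. The parents drank N-acetyl cysteine (NAC), an antioxidant, at 1 g/kg body weight, or water as placebo, from the week before breeding until delivery. Pups were checked every 8 h for 24 h and gave 4 groups: WT pups and heterozygous pups found alive, and heterozygous pups and null pups found dead. The dead pups were harvested upon being found and the live ones at the end, so fate and time of harvest cannot be told apart. Each library was 1 pool of RNA from 3 experiments, or from 2 for dead heterozygous pups, so 1 library stands for each group, treatment and labelled tissue (lung or liver).

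The labelled tissue went against its defining markers in 8 of the 16 libraries and 1 more held markers of both tissues, so libraries were also grouped by content. A library had lung content where Sftpc, the surfactant protein C gene, reached 1000 CPM (counts scaled to the library total) and Alb, the albumin gene, stayed under 1000, and liver content where Alb reached 50000. Lung content was found in 7 libraries, those labelled live WT NAC lung, live heterozygous NAC lung, dead heterozygous placebo lung, live WT placebo liver, live heterozygous placebo liver, dead heterozygous NAC liver and dead null placebo liver. Liver content was found in 8 libraries, those labelled live WT NAC liver, live heterozygous NAC liver, dead heterozygous placebo liver, dead null NAC liver, live WT placebo lung, live heterozygous placebo lung, dead heterozygous NAC lung and dead null NAC lung. The library labelled dead null placebo lung held both markers, with 5553 CPM of Sftpc and 9280 of Alb, and was kept apart as mixed. The library labelled dead null NAC liver lay just inside the liver rule, with 51003 CPM of Alb. In the 8 libraries the tissue label disagrees with content, and whether their treatment or group labels are off as well cannot be told. No dead null NAC library had lung content. Over 8 hepatocyte markers the summed level was 7.42 to 55.6 CPM in lung-content and 37076 to 46733 CPM in liver-content libraries. Over 8 further lung epithelial markers the sums were 5513 to 9490 CPM and 13.7 to 32.5 CPM in turn. Floors of counts cover counting error only. SDs, SEs and p-values rest on the spread between pooled libraries, largely of different pup groups. Libraries held 7236865 to 16107749 counts, and Rn45s, a ribosomal RNA symbol, took 0.845% to 26.2% of them. Counts were given by gene and not by exon, so Man1a2, at 41.4 to 75.4 CPM in lung-content and 29.7 to 51.9 CPM in liver-content libraries, does not check the genotype labels.

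Lung fate begins in the ventral wall of the foregut, where Nkx2-1, a homeodomain factor, marks the cells that will become respiratory epithelium. Foxa1 and Foxa2 are forkhead factors that open endodermal chromatin in lung and in liver, and Gata6, a zinc finger factor, acts beside them. Sox2 marks the proximal airway and Sox9 the growing distal tips. Foxf1, Tbx4 and Tbx5 work in the mesenchyme around the epithelium, where the T-box pair keeps up the signal that makes the tube branch, and Sox17 serves endoderm early and endothelium later. In bulk RNA, fewer cells of a type and less RNA per cell cannot be told apart.

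RefSeq start regions (GRCm38.p6) were at hand for 5 of the 10 genes, Nkx2-1, Foxa1, Foxa2, Sox2 and Tbx4. The 250 bases before each start were searched on both strands for the core letters TGTTTAC (forkhead), CAAGTG (NKX), ACAAAG (SOX), AGGTGT (T-box) and AGATAA (factors of the GATA family), which occurred in 3.166%, 11.61%, 16.46%, 11.83% and 9.988% of all 32851 regions of that length. Stretches of 3 genes are shown, that of Nkx2-1 because the gene was the steadiest of the 10, and those of Foxa1 and Foxa2 because the pair are near relatives that differed between lung and liver content. Capitals mark matches.

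Nkx2-1, minus strand, chr12:56536909-56537158: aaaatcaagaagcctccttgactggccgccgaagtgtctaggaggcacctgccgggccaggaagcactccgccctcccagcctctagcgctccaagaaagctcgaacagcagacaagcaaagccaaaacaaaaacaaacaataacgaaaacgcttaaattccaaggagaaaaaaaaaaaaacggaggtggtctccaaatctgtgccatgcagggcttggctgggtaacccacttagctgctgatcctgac
Foxa2, minus strand, chr2:148045465-148045714: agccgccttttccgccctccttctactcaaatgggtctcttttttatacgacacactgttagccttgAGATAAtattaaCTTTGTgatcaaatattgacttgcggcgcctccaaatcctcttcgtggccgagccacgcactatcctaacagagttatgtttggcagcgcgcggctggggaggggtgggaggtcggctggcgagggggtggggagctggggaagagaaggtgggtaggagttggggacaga
Foxa1, minus strand, chr12:57546234-57546263: tatactgCTTTGTAAACAAAGtgagggcca

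The Nkx2-1 stretch held none of the letters searched. Foxa2 has 3 starts in the table, and the stretch shown, before the innermost of them, held a GATA and a SOX match while the other 2 held none. The 30 bases of Foxa1 begin 152 bases before its start, and an annotated exon overlaps some part of the 250 bases they were taken from. They held a forkhead match overlapped by a SOX match on each strand, and a further SOX match lay nearer the start, outside the stretch shown. Sox2 held 1 SOX match, and Tbx4 held none. A match is a description of letters only.

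Compared per kilobase of exon, Foxf1 and Nkx2-1 had the highest levels in the 7 lung-content libraries (mean 87.1 ± 23.8 and 62.4 ± 3.69 CPM per kb, SD, n = 7), and their ranges overlapped. Tbx4 came next at 37.6 ± 8.23 CPM per kb, below every value of Nkx2-1 and above every value of Foxa2. Foxa2 (13.9 ± 5.0), Sox17 (13.4 ± 2.92), Tbx5 (12.5 ± 3.29) and Foxa1 (10.2 ± 1.95 CPM per kb) followed, each overlapping its neighbour in range. Gata6 (6.61 ± 0.543 CPM per kb) lay below all of these, and Sox2 (2.16 ± 0.512) and Sox9 (1.70 ± 0.864 CPM per kb) were the lowest and overlapped. In the 8 liver-content libraries the order was another one, led by Foxa2 at 7.17 ± 2.99 CPM per kb (SD, n = 8). Foxf1 (3.41 ± 1.38), Foxa1 (2.20 ± 0.597), Gata6 (2.08 ± 0.981), Sox9 (1.35 ± 0.394) and Sox17 (0.827 ± 0.167 CPM per kb) came after it, each overlapping the next. Tbx4, Nkx2-1, Sox2 and Tbx5 were at 4 counts or fewer in every liver-content library. The plot of levels per length shows both orders.

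**Figure D1:**
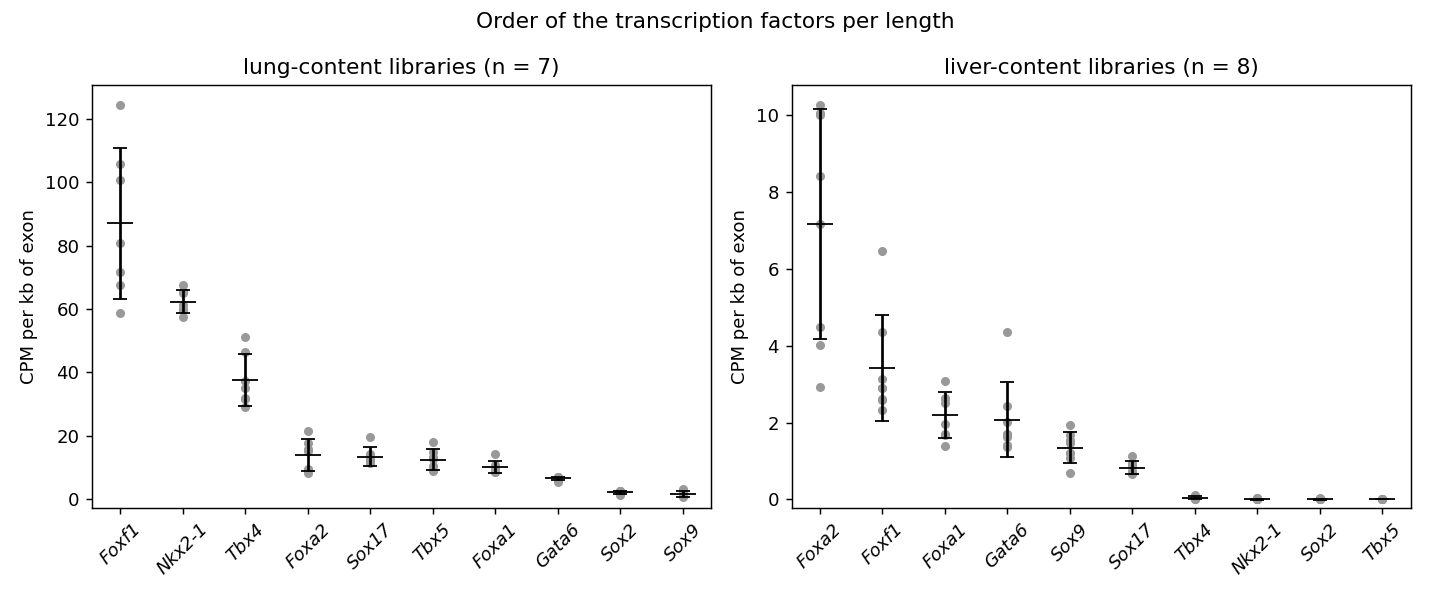
Levels of the 10 transcription factors in CPM per kilobase of annotated exon (y axis), for the 7 lung-content libraries (left) and the 8 liver-content libraries (right, on a smaller scale), in order of the mean. Grey points are libraries, the wide dash is the mean and the bar the SD. Foxf1 and Nkx2-1 lead on the left (87.1 and 62.4), and Foxa2 leads on the right (7.17).

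Nkx2-1 (ENSMUSG00000001496, chr12:56531958-56536908, minus strand, GRCm38) had the smallest relative spread of the 10 in lung-content libraries. Its level was 171, 185 and 192 CPM in the NAC libraries, labelled live WT NAC lung, live heterozygous NAC lung and dead heterozygous NAC liver, and 174, 163, 169.6 and 186 CPM in those labelled live WT placebo liver, live heterozygous placebo liver, dead heterozygous placebo lung and dead null placebo liver. The 7 values differed by a factor of 1.18 at most, a coefficient of variation of 5.92%. The mixed library had 133 CPM, below all 7, and liver-content libraries had 0 counts in 6 and 1 count in the other 2. Against a floor of 3 counts per liver-content library, which was 0.252 CPM on average, Nkx2-1 was at least 703-fold higher in lung content.

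Foxa1 and Foxa2 differed from each other. Foxa1 (chr12:57540628-57546916, minus strand) had 28.6 to 47.3 CPM in lung-content libraries, with a median of 31.5, and 4.63 to 10.2 CPM in liver-content libraries, with a median of 7.44, so the classes did not overlap and the means differed 4.64-fold. Foxa2 (chr2:148042877-148046969, minus strand) had 20.0 to 51.0 CPM with a median of 36.1 in lung content, and 6.93 to 24.4 CPM with a median of 18.5 in liver content. Under the scaling used here the Foxa2 ranges overlapped, and its means differed 1.94-fold. Per length, Foxa1 stood at 0.525 to 1.1 times Foxa2 in lung content (median 0.713) and at 0.232 to 0.580 times Foxa2 in liver content (median 0.302).

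Gata6 (chromosome 18, plus strand) had 36.2 to 46.3 CPM in lung-content libraries, with a coefficient of variation of 8.21%. In liver content it had 8.90 to 28.3 CPM with a median of 11.1, and the classes did not overlap. The 28.3 CPM belonged to the library labelled dead null NAC lung, which also held 349.9 CPM summed over 4 cartilage markers, against 0.0794 to 1.75 CPM in the other 7 liver-content libraries. Summed heart muscle markers, 6 in number, were 80.6 CPM there, against 3.26 to 63.3 CPM in the other 7, and Gata6 is also active in heart. The part of other tissue in that value was not tested.

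The SOX members differed from one another. Sox2 (chr3:34650405-34652461, plus strand) was a low transcript at 2.65 to 5.46 CPM in lung content and was at 0 counts in 7 liver-content libraries and 1 count in the eighth, a difference of at least 17.7-fold. The 6 markers of oesophagus and stomach, where Sox2 also acts, summed to 4.04 to 7.01 CPM in lung-content libraries. Only 1 of the 6 averaged 1 CPM or more there, and 2 to 4 were at 0 counts in each library. Sox17 (chr1:4490931-4497354, minus strand) had 54.0 to 94.1 CPM in lung and 3.10 to 5.41 CPM in liver content, a 16.3-fold difference of means without overlap. Sox9 (chr11:112782224-112787760, plus strand) did not separate the classes, with 3.56 to 13.4 CPM in lung content (median 5.83) and 2.78 to 8.05 CPM in liver content (median 5.54). The 5 biliary markers, biliary epithelium being a place where liver uses Sox9, summed to 118 to 203 CPM in liver content and to 402 to 741 CPM in lung content, where they were higher. Sox9 was the most variable of the 10 within lung content, with a coefficient of variation of 50.9%. Its highest lung-content values were 13.4 CPM in the library labelled dead null placebo liver and 10.5 CPM in that labelled dead heterozygous NAC liver, and the other 5 lay between 3.56 and 6.22 CPM. Summed cartilage markers, cartilage being rich in Sox9, were 1.89 and 4.48 CPM in those 2 libraries and 0.678 to 2.37 CPM in the other 5. The biliary epithelial markers, which lung epithelium also expresses in part, summed to 741 and 634 CPM in those 2 libraries. They summed to 402 to 581 CPM in the other 5, and their part in the Sox9 values was not tested.

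The mesenchymal factors were far apart between the classes. Foxf1 (chr8:121084386-121088144, plus strand) had 142 to 301 CPM in lung content and 5.61 to 15.6 CPM in liver content, a 25.6-fold difference of means. Tbx4 (chr11:85886422-85916097, plus strand) had 99.5 to 174 CPM in lung content, and 0 to 4 counts in liver content, where 3 libraries had 0. Tbx5 (chr5:119832668-119885219, plus strand) had 41.3 to 84.1 CPM in lung content and 0 or 1 count in liver content, at least 232-fold apart. The T-box pair ordered the 7 lung-content libraries identically, from live heterozygous NAC down to live heterozygous placebo, and Tbx4 stood at 2.80 to 3.41 times Tbx5 per length. In the mixed library the ratio was 3.00.

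In all, 8 of the 10 factors were higher in every lung-content than in every liver-content library, all but Foxa2 and Sox9, where 23.6% of 14184 genes were. With other scalings, or with the mixed library placed in a class, the count of 8 ran from 6 to 9. It stayed at 8 with a library left out. No test was made, since the classes come from the data. Of 19 signals and receptors of lung branching, such as Fgf10 and Shh, 17 were higher in this sense, of 22 other transcription factors of lung development 15, and of 9 differentiation genes downstream of Nkx2-1, such as the surfactant protein genes, all 9. The plot of levels by content gives all 16 values for each factor.

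**Figure D2:**
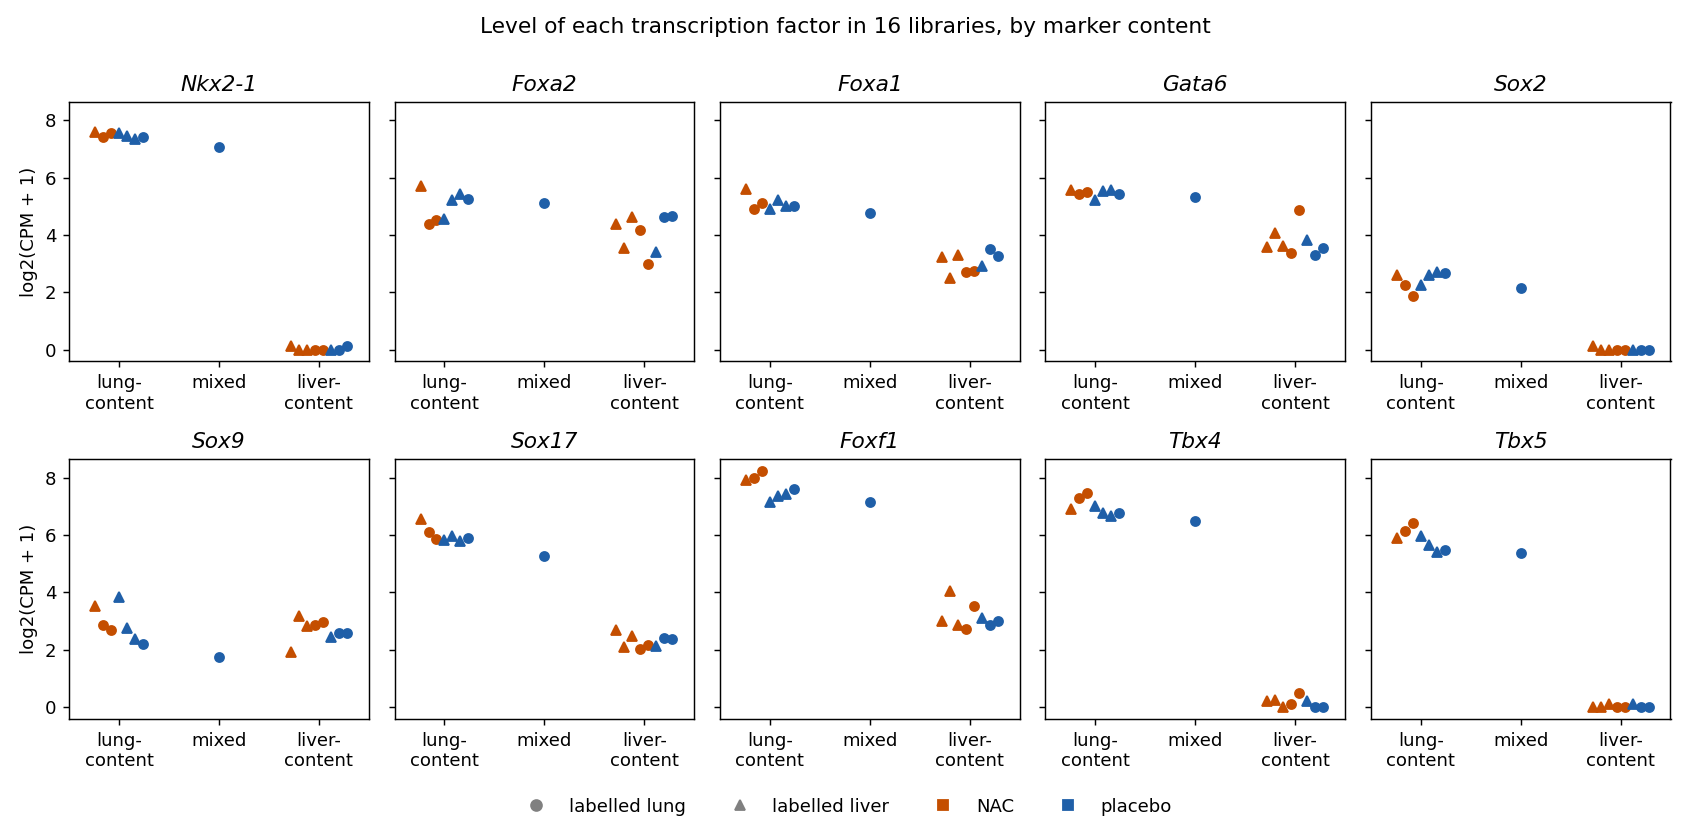
Level of each of the 10 factors in 16 libraries, as log2(CPM + 1) (y axis), by marker content (x axis). Circles are libraries labelled lung and triangles those labelled liver, orange is NAC and blue placebo. Both label shapes occur at both levels, and only Foxa2 and Sox9 overlap between the classes.

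By likeness over the 16 libraries (Pearson r of log2(CPM + 1), a description in which content sets most of the value), Nkx2-1 was nearest to Atp6v1c2, Aqp5 and Irx2 (r 0.9989, 0.9988 and 0.9987). Foxf1 was nearest to Bmpr2, Neo1 and Pecam1 (r 0.9956, 0.9953 and 0.9948). Foxa2, which did not follow content closely, was nearest to Atp6v1g2, Zfp790 and Phlda1 at lower values (r 0.948, 0.937 and 0.936).

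The study asked how NAC altered gene activity in each group and tissue, so NAC was first set against placebo by label, 1 library against 1, with no replicate check. In libraries labelled lung, every factor but Foxa2 and Sox9 was over 2-fold higher with NAC in live pups. Nkx2-1 went from 0 to 171 CPM in live WT pups and from 0.0776 to 185 CPM in live heterozygous pups, and Foxf1 from 6.27 to 255 CPM and from 6.98 to 301 CPM. In dead pups the same labels gave lower levels with NAC for every factor but Sox9. Sox9 was higher with NAC, at 6.37 against 3.56 CPM in dead heterozygous and 6.93 against 2.33 CPM in dead null pups. Nkx2-1 went from 169.6 CPM with placebo to 0 with NAC in dead heterozygous and from 133 CPM to 0 in dead null pups, and Foxf1 from 195 to 5.61 CPM and from 140.4 to 10.5 CPM. In these 8 libraries each pair set a library of lung or mixed content against 1 of liver content. For every factor but Foxa2 and Sox9 the liver-content library had the lower value in each pair. Treatment and content cannot be told apart within a pair. In libraries labelled liver, Tbx4 went from 108 CPM with placebo to 0.185 CPM with NAC in live WT, from 99.5 CPM to 0 in live heterozygous and from 127 to 0.159 CPM in dead null pups, but from 0.159 to 119.9 CPM in dead heterozygous pups.

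Of the 10 factors, 8 were past 2-fold in live WT and 8 in live heterozygous pups of the lung label, where 56% and 60.4% of all genes were, and 9 in dead heterozygous and 9 in dead null pups, where 51.3% and 47% were. Under the liver label the counts were 9 in live WT (50.1% of all genes), 8 among live heterozygous (50.4%), 10 among dead heterozygous (52%) and 9 among dead null pups (55.9%). Foxa2 had a log2 ratio of -0.25 and -0.16 in live WT and live heterozygous pups of the lung label and -0.17 in dead null pups of the liver label. Sox9 lay within 2-fold in live WT and live heterozygous pups of both labels, at log2 ratios of 0.13 to 0.51. It also did in dead heterozygous pups of the lung label, at 0.84. In dead null pups of that label Sox9 was past 2-fold upward, at 1.58, while the other factors past 2-fold there were lower. Gata6 lay within 2-fold in dead null pups of the lung label alone, at -0.44, where the NAC library was the one with 28.3 CPM. The plot of ratios by label shows all 80 values.

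**Figure D3:**
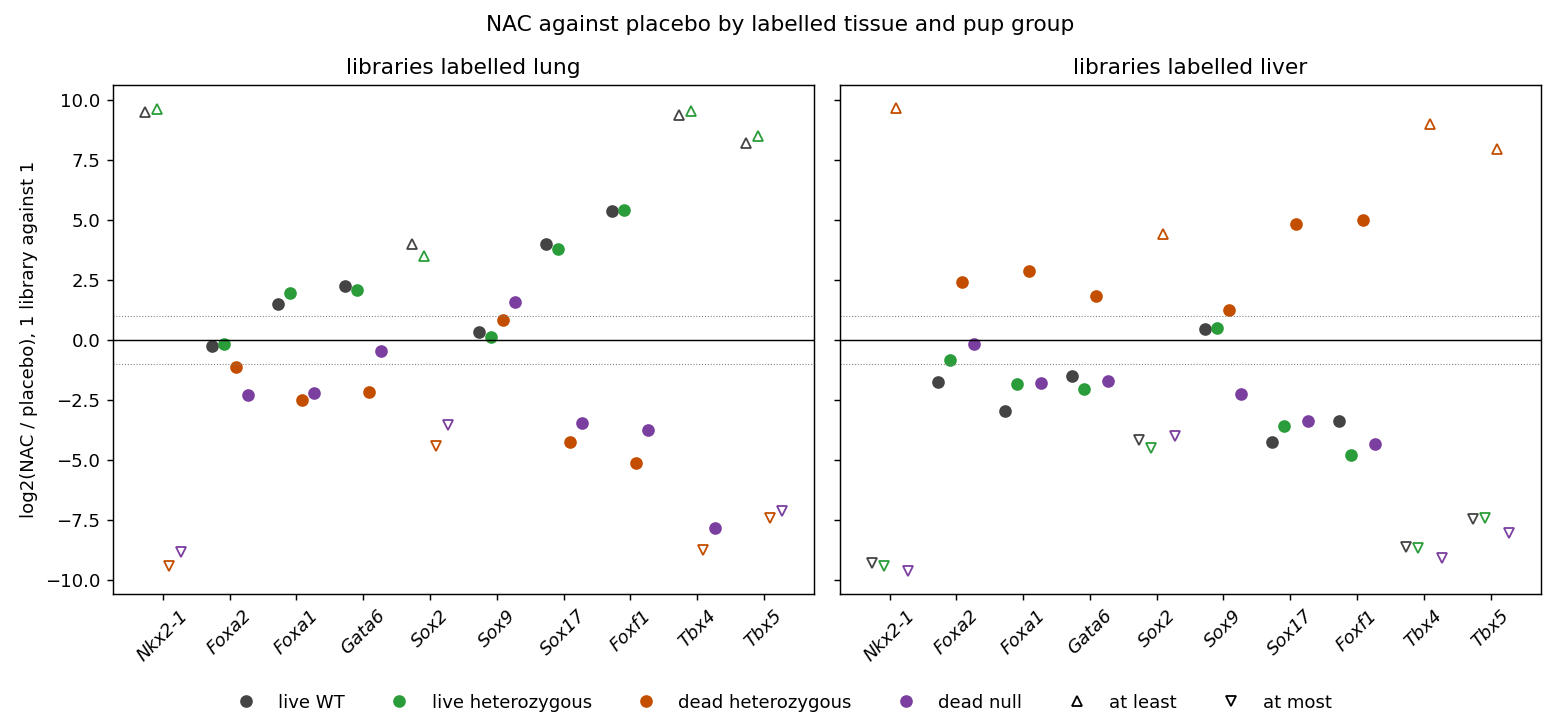
log2 of NAC over placebo (y axis) for each factor, 1 library against 1, in libraries labelled lung (left) and liver (right), coloured by pup group. Open triangles are bounds where 1 library was at or under 3 counts, and dotted lines mark 2-fold. Left, live pups lie above 0 and dead pups below for 8 of 10 factors, and right, dead heterozygous pups lie above 0 and the other groups below for all but Sox9.

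Whether NAC acted differently in dead and in live pups was tested over the 8 libraries of each label with edgeR's quasi-likelihood test, with 2 groups for each fate. Under the lung label 9 of 10 factors passed, all with a lower NAC effect in dead pups, where 62.9% of 14086 genes passed in either direction and 30.1% passed lower. For Sox17 the log2 difference was -7.76 ± 0.42 (SE, adjusted p = 0.000520, edgeR), for Foxf1 -9.85 ± 0.62 (adjusted p = 0.000612), for Foxa1 -4.12 ± 0.38 (adjusted p = 0.00112), for Gata6 -3.48 ± 0.64 (adjusted p = 0.00700) and for Foxa2 -1.53 ± 0.47 (adjusted p = 0.0356). Nkx2-1, Sox2, Tbx4 and Tbx5 passed with libraries at or under the floor of counts, so no size is given. Sox9 was at 0.93 ± 0.55 (adjusted p = 0.197) and did not pass. The fates differ here in content as well, since the libraries of lung content are NAC among live pups and placebo among dead pups. Under the liver label 0 of 10 factors and 0% of 14266 genes passed by edgeR, with 105 genes at an unadjusted p under 0.05, and 1 factor, Nkx2-1, passed by DESeq2. With the library labelled dead null NAC liver or dead null placebo liver left out, 9 factors passed there, all but Sox9. With all 8 libraries, the NAC over placebo ratio of each of these 9 factors was above 1 in dead heterozygous and below 1 in dead null pups. Foxa2 lost its call under the lung label without any 1 of the 4 live libraries (adjusted p 0.120 to 0.159).

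Among genes of the same pathways under the lung label, all 18 signals and receptors tested passed lower. Of 21 other transcription factors, 17 passed lower and 3 higher, the highest being Foxm1, a cell cycle factor, at 3.65 ± 0.37 (adjusted p = 0.00135, edgeR). All 9 genes downstream of Nkx2-1 passed lower, and Shh and Elf5, the furthest down in their lists, were at or under 3 counts in the 4 liver-content libraries of this label, so no size is given. Between the labels themselves, 16 libraries with group and treatment held constant, 0 of 10 factors and 0% of 14184 genes passed between labelled lung and labelled liver by edgeR, 7 genes had an unadjusted p under 0.05, and DESeq2 also called 0. The log2 difference was -0.88 ± 5.19 for Nkx2-1 and 0.16 ± 2.05 for Foxf1. Under each label, liver-content libraries were as many as those of lung or mixed content. Content differences thus largely cancelled between the labels, so the test cannot compare lung with liver tissue.

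Within the 7 lung-content libraries, 3 with NAC and 4 with placebo, Foxf1 was the 1 factor of 10 that passed between treatments. It had 255, 301 and 244 CPM in the live WT, live heterozygous and dead heterozygous NAC libraries, and with placebo 163 and 173 CPM in the same live groups, 195 CPM in dead heterozygous and 142 CPM in dead null pups. All 3 NAC values lay above all 4 placebo values. The share of all genes without overlap was not counted, and Shh, Foxp1, Etv5 and Cldn18, described below, also did not overlap. The Foxf1 mean was 267 ± 30.2 (SD, n = 3) against 168 ± 22 CPM (SD, n = 4). With fate in the model Foxf1 rose by 0.66 ± 0.16 on the log2 scale (SE, adjusted p = 0.0348, edgeR's quasi-likelihood test). Of all 13990 genes tested, 13.3% passed, 7.83% higher and 5.52% lower, so 1 factor of 10 is near the share of all genes. Within a pup group NAC over placebo was 1.57 in live WT, 1.74 in live heterozygous and 1.25 in dead heterozygous pups. The call was lost without any 1 of 5 of the 7 libraries (adjusted p 0.061 to 0.143, log2 difference 0.57 to 0.75), and the exceptions were those labelled dead heterozygous NAC liver and dead null placebo liver. It was also lost when scaling used library size alone (0.42, adjusted p = 0.218) and with the tissue label in the model (0.57, adjusted p = 0.0893), labelled lung being 2 of 3 NAC and 1 of 4 placebo libraries.

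Summed endothelial markers also did not overlap between treatments in these libraries, endothelium being a part of the lung where Foxf1 acts. Over 6 of 6 markers, Pecam1 and Cdh5 among them, they were 1739 to 1837 CPM with NAC and 1291 to 1604 CPM with placebo, none was at 0 counts, and 0 of the 6 passed alone. Summed markers of fibroblasts and mesenchyme overlapped, at 1311 to 1752 CPM with NAC and 1363 to 1713 CPM with placebo, and so did heart muscle markers, at 133 to 421 and 225 to 411 CPM. Rn45s took 8.16% to 26.2% of counts with NAC and 4.05% to 19.7% with placebo. The part of these in the Foxf1 difference was not tested. Fendrr, the RNA transcribed away from Foxf1 next to its start, was higher with NAC in 1 of 3 pup groups, at 0.789 to 2.43 times its placebo level.

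Tbx5 and Tbx4 did not pass between NAC and placebo. Tbx5 had 70.4, 84.1 and 58.8 CPM in the live WT, live heterozygous and dead heterozygous NAC libraries, and with placebo 49.2 and 41.3 CPM in the same live groups, 43.3 CPM in dead heterozygous and 61.8 CPM in dead null pups. Only the dead null placebo library lay within the NAC range, and the log2 difference was 0.54 ± 0.19 (adjusted p = 0.0861, edgeR). Tbx4 had 158, 174 and 119.9 CPM with NAC and 108, 99.5, 107 and 127 CPM with placebo in the same order, a log2 difference of 0.43 ± 0.17 (adjusted p = 0.115). NAC over placebo was above 1 in 3 of 3 pup groups for both, which was not counted over all genes. The ratio was 1.36 to 2.04 for Tbx5 and 1.12 to 1.75 for Tbx4. Both passed with pup group in place of fate in the model (adjusted p = 0.0204 and 0.047), without the library labelled dead null placebo liver (adjusted p = 0.0116 and 0.0308) and without that labelled dead heterozygous NAC liver (adjusted p = 0.0461 and 0.0377).

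The other 7 factors gave no call between NAC and placebo in lung content. Sox17 was at 0.37 ± 0.16 (adjusted p = 0.133, edgeR), and 94.1 CPM in the library labelled dead heterozygous NAC liver lay above the other 6 libraries, at 54.0 to 67.6 CPM. Nkx2-1 was at 0.10 ± 0.13, and Gata6 was at 0.06 ± 0.13. Under library size alone the whole table shifted by a median of -0.22 on the log2 scale, and Nkx2-1, Foxa1 and Gata6 then stood at -0.13, -0.01 and -0.16, still with no call. Foxa1 (0.21 ± 0.18), Sox9 (0.27 ± 0.39), Foxa2 (-0.18 ± 0.33) and Sox2 (-0.32 ± 0.29) did not pass either. Without the library labelled dead heterozygous NAC liver, Foxa2 passed at -0.89 (adjusted p = 0.0490). Sox17 and Sox9 were higher with NAC in 3 of 3 pup groups, at 1.06 to 1.61 and 1.07 to 2.95 times placebo. Sox2 was lower with NAC in 3 of 3 pup groups, at 0.484 to 0.952 times placebo. How many of all genes kept their direction in 3 of 3 pup groups was not counted.

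**Figure D4:**
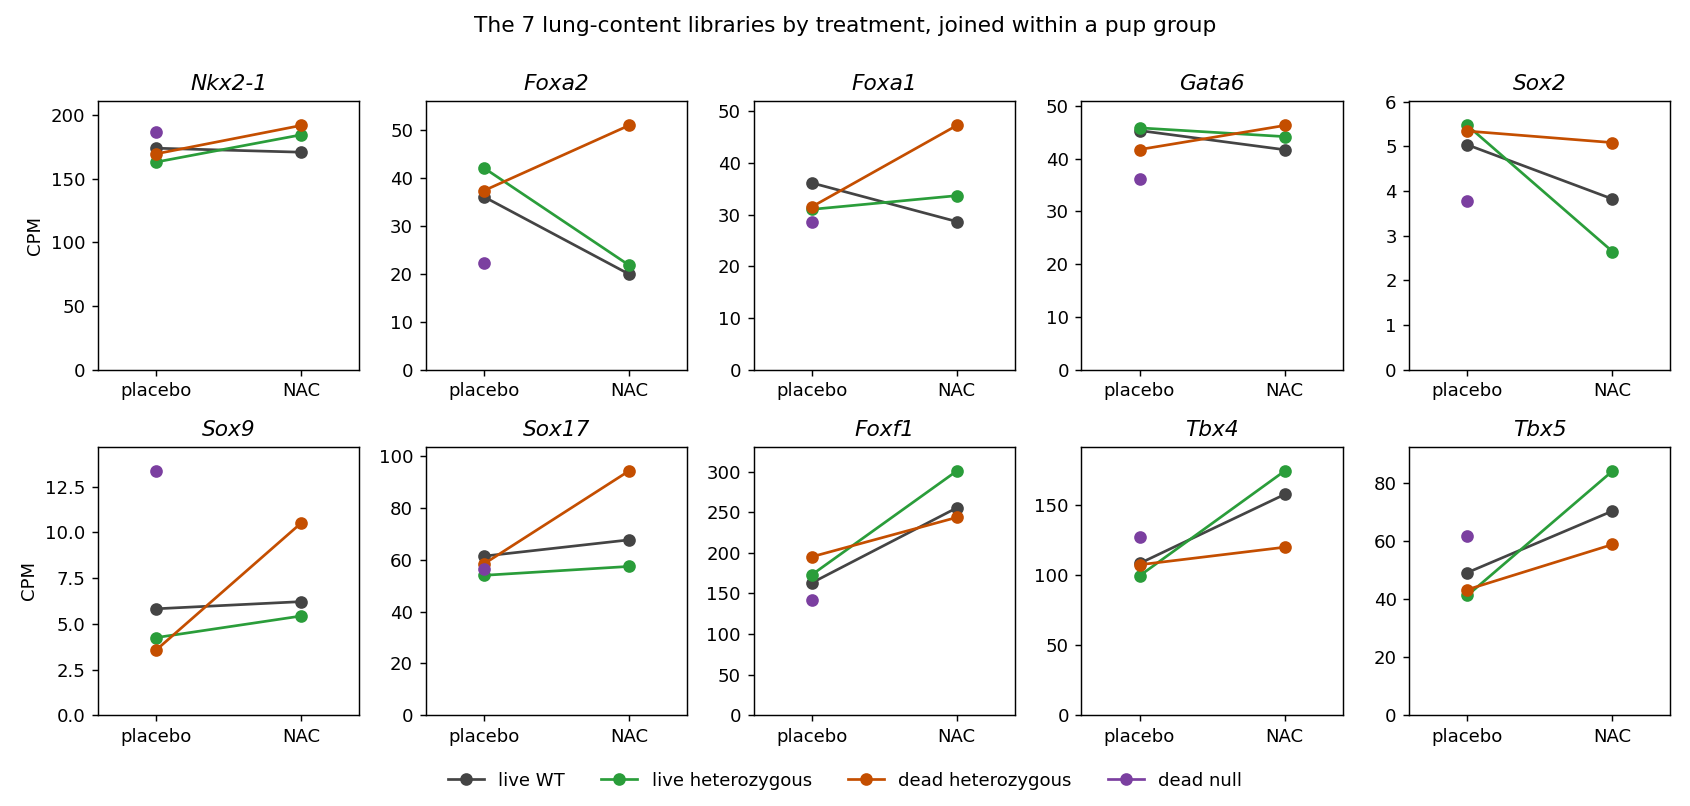
Levels in CPM (y axis, from 0) of the 10 factors in the 7 lung-content libraries, placebo on the left and NAC on the right of each panel, with lines joining libraries of 1 pup group. Dead null pups have a placebo library alone. Foxf1, Tbx4, Tbx5, Sox9 and Sox17 lie higher with NAC in 3 of 3 groups, and how many of all genes do so was not counted. Foxa2 lies lower with NAC in both live groups and higher in dead heterozygous pups.

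Genes that work with these factors changed with NAC in lung content in both directions. Of 19 branching signals and receptors, 4 fell and 0 rose, where 5.52% of all genes tested fell and 7.83% rose. Shh, the epithelial hedgehog ligand, fell by 1.37 ± 0.28 on the log2 scale (5.71 to 12.7 against 18.7 to 31.8 CPM, adjusted p = 0.0254, edgeR) and Gli1, a hedgehog target, by 1.54 ± 0.38 (7.37 to 10.2 against 9.13 to 34.6 CPM, overlapping, adjusted p = 0.0346). Of 21 other lung transcription factors tested, Foxp1, a forkhead repressor, rose by 0.93 ± 0.20 (168 to 258 against 95.7 to 139 CPM, adjusted p = 0.0268) and 3 fell. Etv5, a target of branching signals at the distal tips, fell by 0.93 ± 0.21 (51.3 to 79.8 against 88.0 to 144 CPM, adjusted p = 0.0287). Of 9 genes downstream of Nkx2-1, 2 fell and 7 did not pass, and Cldn18, a tight junction gene of alveolar epithelium, fell by 1.00 ± 0.19 (245 to 300.3 against 374 to 619 CPM, adjusted p = 0.0230). The median log2 difference was 0.24 over the 10 factors, -0.22 over the signals, 0.03 over the other transcription factors, -0.13 over the downstream genes and -0.02 over all genes tested.

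Of all the factors Foxa2 had the largest difference between fates in its response to NAC, but it did not pass. It had 20.0 and 21.9 CPM in the live WT and live heterozygous NAC libraries against 36.1 and 42.2 CPM with placebo, but 51.0 CPM in the dead heterozygous NAC library against 37.4 and 22.4 CPM in the dead heterozygous and dead null placebo libraries. NAC over placebo was thus 0.553 and 0.519 in the live groups and 1.36 in dead heterozygous pups. The log2 difference of the NAC effect, dead minus live, was 1.67 ± 0.38 (unadjusted p = 0.00236 and adjusted p = 0.379, edgeR across all genes). No factor passed, and 1 of 13990 genes (0.00715%) did, with 1550 at an unadjusted p under 0.05. Foxa1 was at 0.76 ± 0.26 (adjusted p = 0.384) and Tbx4 at -0.65 ± 0.27 (adjusted p = 0.436). All of these rest on 1 NAC library of dead pups with lung content, labelled dead heterozygous NAC liver. The summed lung epithelial markers were 5513 and 5603 CPM in the live WT and live heterozygous NAC libraries, against 7053 and 6487 CPM with placebo. They were 9490 CPM in the dead heterozygous NAC library, against 6783 and 6829 CPM in the dead heterozygous and dead null placebo libraries. The part of these markers in the Foxa2 values was not tested. Foxa2 passed under library size alone (2.04), with no filter on low counts (1.67) and without the library labelled dead heterozygous placebo lung (2.07). It did not pass under any other setting or with any other library left out. The log2 difference was 1.59 to 2.04 over the other settings and 1.34 to 2.07 with a library left out.

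Between dead and live pups of lung content, 3 against 4 libraries with treatment in the model, 0 of 10 factors passed, as did 0% of 13990 genes by edgeR, with 508 genes at an unadjusted p under 0.05 and 19 called by DESeq2, none of them among the 10. The ranges of dead and live pups overlapped for all 10 factors. Sox9 had the largest log2 difference at 0.77 ± 0.39 (adjusted p = 0.9997), 9.14 ± 5.04 CPM in dead (SD, n = 3) against 5.43 ± 0.851 CPM in live pups (SD, n = 4). Nkx2-1 was at 183 ± 11.6 CPM in dead and 173 ± 8.86 CPM in live pups (log2 difference 0.09 ± 0.13).

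**Figure D5:**
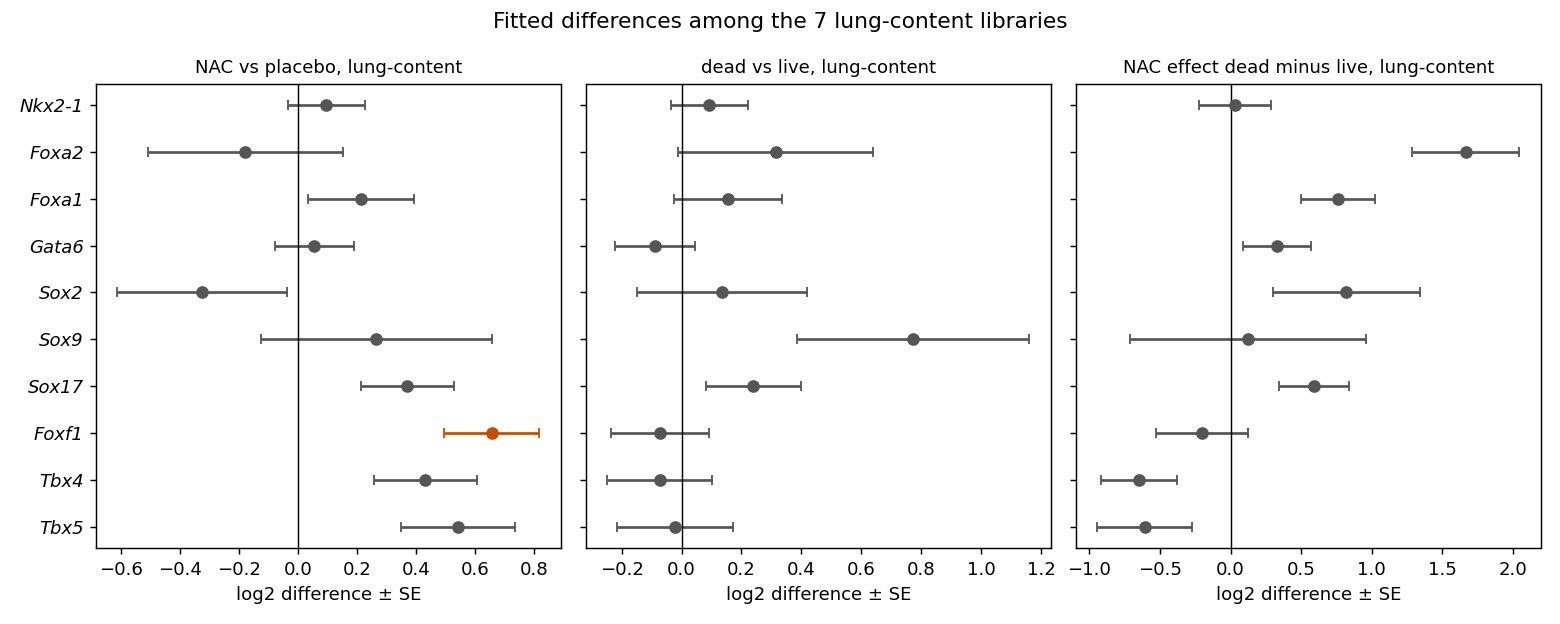
Fitted log2 differences (x axis, point and SE) of the 10 factors in the 7 lung-content libraries, for NAC against placebo (left), dead against live pups (middle) and the difference of the NAC effect between dead and live pups (right). Orange marks an adjusted p under 0.05. Foxf1 at left (0.66) is the only one, and Foxa2 at right (1.67) lies furthest from 0.

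In the 8 liver-content libraries, 5 with NAC and 3 with placebo, 6 factors could be tested, as Nkx2-1, Sox2, Tbx4 and Tbx5 were under the minimum mean of 1 CPM. The NAC libraries included both of dead null pups, labelled lung and liver, which were entered as separate libraries. None of the 6 passed between NAC and placebo, between dead and live pups or in the difference of the NAC effect, where 0%, 0% and 0% of 12993 genes passed by edgeR and 260, 702 and 234 had an unadjusted p under 0.05. Foxa2, a factor with a role in adult and newborn liver as well, lay at 17.0 to 24.4 CPM in 5 libraries and at 6.93, 9.55 and 10.6 CPM in those labelled dead null NAC lung, dead heterozygous placebo liver and live WT NAC liver. Those 3 libraries had the highest summed levels of the 6 mesenchymal markers, at 979, 583 and 817 CPM, against 298 to 454 CPM in the other 5, and the highest 3 values of Gata6 and Foxf1. The part of these markers was not tested. Between NAC and placebo Foxa2 was at -0.03 ± 0.44 and Foxf1 at 0.44 ± 0.37, and between dead and live pups Foxa2 was at -0.60 ± 0.42 (adjusted p = 0.783). With both dead null NAC libraries summed into 1, no factor passed between NAC and placebo or between dead and live pups.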

How the data were processed

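RNA from pooled pups was sequenced from 16 libraries made with a stranded mRNA kit. Per the labels and the study's methods, the authors trimmed adapters, aligned reads to mouse GRCm38 with the Omicsoft aligner and kept uniquely mapped reads; the submitters' processing notes name edgeR 3.30.3 and R 4.0.3. The annotation release and the use of strand are not given in the sources used here. The deposited values are estimated counts per gene, not normalized, and 6.28% to 7.98% of values in a library were not whole, so they were rounded. Reads of Sox17, Foxf1, Gata6 and Sox2 may be shared with overlapping or antisense genes.

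Levels are CPM with TMM factors over all 16 libraries, and levels per kilobase used the exon union of GENCODE M21 (GRCm38). Tests used edgeR 4.0.16 in R 4.3.3 (quasi-likelihood, on genes averaging 1 CPM or more, Benjamini-Hochberg over all genes tested, threshold 0.05), with SE as the log2 difference over the square root of F. DESeq2 1.42.0, other scalings, filters, covariates and leaving out libraries were alternatives. The scripts were tested on simulated data. Python 3.11.15 with pandas 2.3.3 and numpy 2.4.6 made the summaries.

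All 10 factors are named in each comparison, and of each further list the called gene with the largest change each way and a mean of at least 10 CPM. The likeness genes are the 3 of highest r for Nkx2-1, Foxf1 and Foxa2. Members, lists and content rule were chosen with earlier results of these data known. Of the marker lists, Cnmd and Epb42 were not matched in the table. Some marker results are not reported here.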

Additional observations from a re-analysis of the deposited data

Results flagged for a closer look

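In groups of 4 to 8 libraries, 1 library stood apart from the others by Dixon's test in 7 of 57 groups tested. Chance flags about 1 in 20 for independent groups, but these groups share libraries. Among the lung-content libraries, that labelled dead heterozygous NAC liver had 47.3 CPM of Foxa1 and 94.1 CPM of Sox17. Among the liver-content libraries, that labelled dead null NAC lung had 28.3 CPM of Gata6 and 0.396 CPM of Tbx4, the latter from 4 counts. Among the live liver-content libraries, that labelled live WT NAC liver had 15.6 CPM of Foxf1, above the others, and 10.6 CPM of Foxa2, below the others. Among the dead liver-content libraries, that labelled dead null NAC liver had 5.41 CPM of Sox17.

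For 9 factors under the lung label, the difference of the NAC effect between dead and live pups passed edgeR's quasi-likelihood test. In the same fit 62.9% of 14086 genes passed in either direction and 30.1% passed lower, as all 9 factors did. Adjusted p was 0.000522 for Nkx2-1, 0.000612 for Foxf1, 0.00112 for Foxa1, 0.0356 for Foxa2 and 0.00478 for Sox2. It was 0.000520 for Sox17, 0.000645 for Tbx4, 0.000868 for Tbx5 and 0.00700 for Gata6. In these libraries the difference of the NAC effect between fates and the marker content cannot be told apart.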

How the results depend on the processing

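With other settings than a library left out, 85 counts of factors called stayed within 1.5 times the main count and 6 did not. Under the liver label, DESeq2 called 1 factor in place of 0 for the difference of the NAC effect, and leaving out a library gave 0 to 9 factors. For NAC against placebo in lung content the main count of 1 became 0 with library size alone, 3 with pup group in place of fate, 0 with the tissue label as a covariate (chosen after seeing the data) and 0 to 4 with a library left out. Over all genes that comparison called 1867, against 872 with library size alone, 3588 with pup group and 179 with the tissue label, and 36.9% of calls were higher under library size alone against 58.7%. For the difference of the NAC effect in lung content the count of 0 became 1 with library size alone, 1 with no filter and 0 to 1 with a library left out, and all genes called rose from 1 to 91 and 73. Under the lung label library size alone moved the share of higher calls from 52.2% to 30.5%, with a median shift of -1.12 on the log2 scale.

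Library size alone turned the sign of Sox9 under the lung label (-0.20), of Nkx2-1 (-0.13), Foxa1 (-0.013) and Gata6 (-0.16) for NAC in lung content, and of Foxf1 for the difference of the NAC effect there (0.19), none of them called. With a library left out, the NAC difference in lung content ran from -0.10 to 0.35 for Foxa1, -0.076 to 0.12 for Gata6 and -0.89 to 0.064 for Foxa2, and the difference of the NAC effect from -0.055 to 0.095 for Nkx2-1, -0.57 to 1.35 for Sox9 and -0.41 to 0.028 for Foxf1. The cause was not tested. The difference of the NAC effect could not be fitted without the library labelled dead heterozygous NAC liver in lung content or dead heterozygous placebo liver in liver content. The labels carry no replicate numbers that pair libraries, and the fit with pup group in place of fate is the one that compares treatments within pup groups. Transcripts at or under 3 counts in liver content could not be compared between treatments there.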

Other observations

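Other marker lists held further calls between NAC and placebo in the 7 lung-content libraries, by edgeR's quasi-likelihood test. Slc4a1, the red cell anion exchanger, rose with NAC by 1.5 ± 0.31 on the log2 scale (SE, 89.1 to 229 against 33.2 to 97.0 CPM, overlapping, adjusted p = 0.0258). Of 5 biliary markers, which lung epithelium also expresses in part, Epcam rose by 0.64 ± 0.16 (84.0 to 105 against 53.6 to 75.0 CPM, adjusted p = 0.0359), and Spp1 fell by 2.14 ± 0.56 (adjusted p = 0.0399). Of 6 markers of fibroblasts and mesenchyme, 1 fell, Tcf21. None of the tested markers of hepatocytes, lung epithelium, heart muscle, cartilage, foregut, pancreas or endothelium passed. These genes were named after their values were seen.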
